A study of Mus musculus with 6 samples.

Results

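Globin and erythroid genes mark red blood cells and their precursors, and in a solid tissue such as intestine their RNA is a sign of blood in the sample. The 8 genes named for this purpose were the adult alpha globin genes Hba-a1 and Hba-a2, the adult beta globin genes Hbb-bs and Hbb-bt, and the erythroid genes Alas2, Slc4a1, Ahsp and Klf1. They were taken by gene symbol from the 54446 gene identifiers of the count table. A row was matched for 7 of the 8, and all 7 were among the 19176 genes that passed the low-count filter. Ahsp, the alpha globin chaperone, was not matched and is not analysed here.

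Intestines of 3 NEC samples were set against those of 3 control samples, all from wild-type mice and all taken at 96 h. NEC stands for necrotizing enterocolitis, an inflammatory bowel injury of newborns that was modelled here by feeding and stress. The NEC mice were gavaged with 33% Esbilac, a puppy milk replacer, at 40 µl every 4 h, and every 12 h they underwent 100 s of hypoxia in 99.9% N2 and then 10 min of cold at 4 °C. The control mice were fed by the dam and underwent neither stress. The intestinal segment, the age and the sex of the mice, and whether a sample is 1 animal, are not stated in the sources used here. Each p-value therefore reflects only the scatter of these samples, which could be technical. Sample codes in the labels begin with AG181028 for NEC replicate 1 and control replicate 3 and with AG181017 for the other 4 samples, and what the code stands for is not given.

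Haemoglobin is a tetramer of paired alpha and beta globin chains, each holding a heme group that binds oxygen. Red cell precursors, the erythroblasts, make globin and heme under the control of GATA1 and KLF1, then lose the nucleus. The young red cell that enters the blood, the reticulocyte, keeps globin mRNA for a short time, and newborn mammals have many such cells in the circulation. RNA of a blood-containing tissue can therefore hold much globin mRNA and little of the transcription factors that act in erythroblasts.

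On mm10, the alpha genes lie on the plus strand with Hbq1b between them, Hba-a1 (ENSMUSG00000069919) at chr11:32283511-32284465 and Hba-a2 (ENSMUSG00000069917) at chr11:32296489-32297298. The beta genes lie on the minus strand, Hbb-bs (ENSMUSG00000052305) at chr7:103826534-103828096 and Hbb-bt (ENSMUSG00000073940) at chr7:103812524-103813996. Alas2 (ENSMUSG00000025270) is at chrX:150547375-150570638, Slc4a1 (ENSMUSG00000006574) at chr11:102348824-102366203 and Klf1 (ENSMUSG00000054191) at chr8:84901928-84905291.

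Each globin pair is a recent duplication, which limits how far counts of its members can be told apart. The sequences below show this in the GENCODE M21 transcripts (mm10), where the coding sequences of 429 bases in the alpha pair and 444 bases in the beta pair each differ at 1 position. The capital marks that position, counted from 1 at the A of the start codon: C381T from Hba-a1 to Hba-a2 and C417T from Hbb-bs to Hbb-bt.
Hba-a1: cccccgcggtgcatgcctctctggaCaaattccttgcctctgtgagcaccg
Hba-a2: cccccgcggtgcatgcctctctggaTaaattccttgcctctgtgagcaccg
Hbb-bs: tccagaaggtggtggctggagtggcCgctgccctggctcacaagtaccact
Hbb-bt: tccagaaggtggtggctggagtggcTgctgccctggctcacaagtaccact

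Of all 150-base stretches of the Hba-a1 transcript, 48.4% occur unchanged in Hba-a2, and 65.7% of those of Hba-a2 occur in Hba-a1. For Hbb-bs and Hbb-bt the shares are 58.7% and 50.7%. Within the coding sequence alone the shares are higher, at 82.5% in the alpha pair and 90.5% in the beta pair. Reads were 150 bases long, so a single read from these stretches fits both genes, and the authors' treatment of such reads is not stated. A sum over each pair does not depend on how reads were divided within it, so the sums are given beside the single genes. If such reads were dropped or counted for both genes, the sums and the ratios between them would change too.

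The promoters of the globin pairs and of Alas2 are shown so that the copies can be compared outside the coding sequence. Each line holds the 110 bases before the gene start in RefSeq (build GRCm38.p6), 5′ to 3′ on the gene's strand. Capitals mark 5 motifs searched on both strands, so some matches appear as their reverse complement. The motif CACCC is the core of KLF1 sites. The motif CCAAT is the CCAAT box. The motif AGATAA is a GATA site, as is the motif TGATAA. The motif ATATAA is a TATA box.
Hba-a1, plus strand: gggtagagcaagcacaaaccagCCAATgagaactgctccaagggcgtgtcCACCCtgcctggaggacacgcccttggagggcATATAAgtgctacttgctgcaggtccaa
Hba-a2, plus strand: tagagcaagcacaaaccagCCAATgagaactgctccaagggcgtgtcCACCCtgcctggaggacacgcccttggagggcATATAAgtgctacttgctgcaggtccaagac
Hbb-bs, minus strand: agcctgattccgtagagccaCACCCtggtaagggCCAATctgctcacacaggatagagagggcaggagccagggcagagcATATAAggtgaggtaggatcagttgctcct
Hbb-bt, minus strand: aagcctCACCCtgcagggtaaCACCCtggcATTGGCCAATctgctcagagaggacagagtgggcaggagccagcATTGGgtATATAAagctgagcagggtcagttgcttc
Alas2, plus strand: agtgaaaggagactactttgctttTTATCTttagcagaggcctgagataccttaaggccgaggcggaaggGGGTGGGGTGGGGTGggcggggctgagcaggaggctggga

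They lie at chr11:32283562-32283671, chr11:32296382-32296491, chr7:103827929-103828038, chr7:103813924-103814033 and chrX:150547307-150547416, in the order of the lines. All 4 globin promoters hold CACCC, which occurs in 29.6% of the 32851 RefSeq promoter windows of this length. They also hold CCAAT, found in 20.2% of windows, and the TATA box motif ATATAA, found in 4.09%. The Alas2 window holds 3 adjoining CACCC matches and 1 AGATAA, a motif found in 3.99% of windows, while TGATAA is in 3.03%. The alpha promoters are identical over the 107 positions that align with a shift of 3 bases, whereas the beta promoters match at 80 of 109 positions. These matches describe the letters of the windows and are not evidence of binding.

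The libraries were deep, with 69441184 to 106304239 counts each, but counts from 4 to 40 that are multiples of 4 were 1.93 times as frequent as their neighbours, so 1 count need not be 1 fragment and low values carry less information than they appear to. The tissue label held, since all 10 enterocyte markers were measured. The villus protein gene Vil1, named after its values were seen, was between 585 and 1012 CPM in the 6 libraries. The enterocyte list summed to 90616, 44167 and 112994 CPM in NEC replicates 1 to 3. In control replicates 1 to 3 it summed to 107599, 54391.5 and 121323 CPM. The lowest sum was that of NEC replicate 2, the library with the most globin, followed by control replicate 2. The part of tissue make-up in the globin values was not tested. CPM, here and below, is the count scaled to a library of 1e6 counts after TMM scaling. Control replicates 1 and 2 contained Xist (179 and 344 CPM) against at most 1.17 CPM elsewhere, and control replicate 1 also held the Y-linked Ddx3y at 19.8 CPM, so RNA linked to both sexes was present in it. Ddx3y was at 25.6, 44.8 and 35.1 CPM in NEC replicates 1 to 3 and at 30.9 CPM in control replicate 3, so sex-linked RNA differed between the groups. Fits without each library are given with the results. The liver genes Alb, Ahsg and Cyp2e1, chosen after their values were seen, stood out in the samples coded AG181028. Alb, the gene of serum albumin, had 21.8 CPM in NEC replicate 1 and 25.9 CPM in control replicate 3, against 0.172 to 0.201 CPM in the other 4 libraries. The whole hepatocyte list, of which 10 of 11 genes were tested and 0 were called, summed to 289, 407 and 338 CPM in NEC replicates 1 to 3 and 663, 687 and 564 CPM in control replicates 1 to 3. The sum was the lowest of its group in each AG181028 library, the opposite direction to Alb, but few genes set it. Ttr gave 239, 373 and 309 CPM of it in NEC replicates 1 to 3 and 374, 623 and 138 CPM in control replicates 1 to 3. Serpina1a gave another 239 and 330 CPM in control replicates 1 and 3. The sum therefore does not speak to the values of Alb.

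All 4 adult globin genes were measured at higher levels in the NEC intestines as a group, 5.34-fold to 6.29-fold over control by the means, and the heme synthesis gene Alas2 was 8.71-fold higher by the means. The band 3 gene Slc4a1 and the transcription factor gene Klf1 were below 1 CPM in every library, with no separation of the groups. None of the 7 measured genes passed the edgeR quasi-likelihood test at an adjusted p below 0.05. The size of the globin difference was set by individual NEC libraries, of which replicate 2 was the highest for every globin gene. In bulk tissue, more red cells and more globin RNA per red cell cannot be told apart.

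Hbb-bs, an adult beta globin gene, had the highest CPM of the set in every library. It had 183, 1079 and 591 CPM in NEC replicates 1 to 3 and 118, 111 and 112 CPM in control replicates 1 to 3. Every NEC library exceeded every control library, the controls were nearly equal, and the NEC libraries spanned 183 to 1079 CPM. The means were 617 ± 448 CPM in NEC and 114 ± 3.93 CPM in control (SD, n = 3 each). The log2 fold change was 2.44 (SE 0.57, 95% interval 1.11 to 3.77), with an edgeR adjusted p of 0.106. On log2(CPM + 0.5), an exact permutation test (two-sided) gave p = 0.1, the smallest that 3 libraries against 3 allow.

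Hbb-bt, the second adult beta globin gene, had 64.2, 654 and 236 CPM in NEC replicates 1 to 3, against 53.6, 49.1 and 48.9 CPM in control replicates 1 to 3. NEC replicate 1 lay just above the controls and NEC replicate 2 far above them. Its log2 fold change was 2.65 (SE 0.72, 95% interval 0.98 to 4.33, edgeR adjusted p = 0.141). The beta pair summed had 247, 1732 and 827 CPM in NEC and 172, 160 and 161 CPM in control, with a log2 fold change of 2.51 (SE 0.62, edgeR adjusted p = 0.115).

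Hba-a1, an alpha globin gene, had 147, 582 and 242 CPM in NEC replicates 1 to 3, against 42.1, 33.7 and 97.4 CPM in control replicates 1 to 3. The groups did not overlap, and control replicate 3 was well above the other controls. Its log2 fold change was 2.49 (SE 0.61, 95% interval 1.07 to 3.91, edgeR adjusted p = 0.114). Hba-a2, its near copy, had 74.1, 414 and 180 CPM in NEC and 30.3, 19.0 and 75.7 CPM in control. Here the groups overlapped, because NEC replicate 1 lay below control replicate 3. The log2 fold change of Hba-a2 was 2.42 (SE 0.72, edgeR adjusted p = 0.172), and that of the summed alpha pair was 2.46 (SE 0.66, edgeR adjusted p = 0.135).

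Alas2 makes the erythroid form of 5-aminolevulinate synthase, the first enzyme of heme synthesis. It had 6.34, 21.4 and 8.07 CPM in NEC replicates 1 to 3, against 0.695, 0.244 and 3.17 CPM in control replicates 1 to 3. The groups did not overlap, with NEC replicate 2 highest and control replicate 3 highest of the controls, as in the alpha genes. The log2 fold change was 3.11 (SE 0.94, 95% interval 0.93 to 5.30, edgeR adjusted p = 0.179). Alas2 overlaps Apex2 and Mir3620 on the opposite strand, and without a stated strand setting their reads cannot be told apart from its own.

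Slc4a1 makes band 3, the anion exchanger of the red cell membrane. It had 0, 72 and 16 counts in NEC replicates 1 to 3 and 38, 0 and 40 counts in control replicates 1 to 3, so both groups span from 0 upward. A count of 0 allows up to 0.0308 CPM in NEC replicate 1 and 0.0432 CPM in control replicate 2, covering counting error only. Klf1, the erythroid transcription factor that binds CACCC sites, had 46, 12 and 26 counts in NEC and 28, 20 and 26 counts in control. NEC replicate 2, the highest library for globin, was the lowest for Klf1 at 0.135 CPM. The log2 fold changes were 0.21 for Slc4a1 (SE 1.61, 95% interval -3.53 to 3.95, edgeR adjusted p = 0.976) and 0.12 for Klf1 (SE 0.68, 95% interval -1.46 to 1.69, edgeR adjusted p = 0.964). With intervals this wide, a difference of the size seen in the globin genes was not detectable for Slc4a1. For Klf1 the interval ends below the globin estimates from all 6 libraries, but it overlaps the globin intervals, which start at 0.75 to 1.11. Klf1 also rests on only 12 to 46 counts per library.

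**Figure D1:**
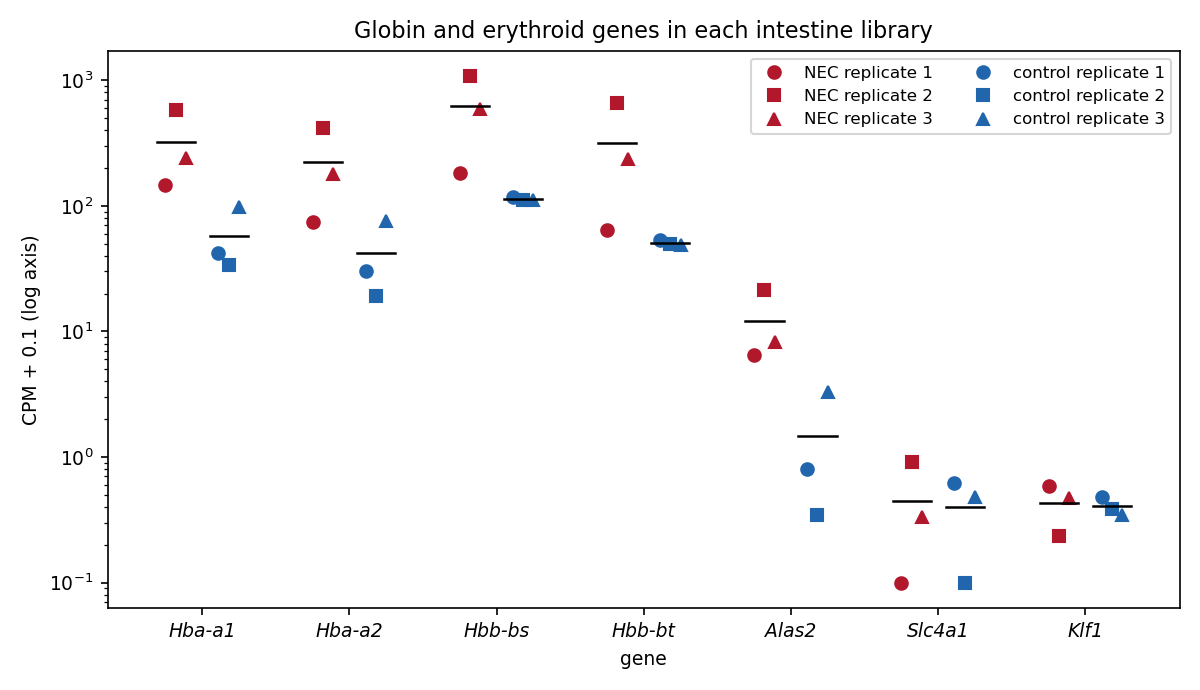
CPM of the 7 measured genes in each library, plotted as CPM + 0.1 on a log axis, with NEC (red) left of control (blue) and black bars at the group means. The globin genes and Alas2 are highest in NEC replicate 2, at 1079 CPM for Hbb-bs, while Slc4a1 and Klf1 stay below 1 CPM in all 6 libraries.

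Of the 7 measured genes, 0 were called by edgeR, where 0.704% of all genes tested were called in either direction and 0.261% were called higher in NEC. At an unadjusted p below 0.05, 5 of the 7 (the 4 globins and Alas2) were higher in NEC, against 7.61% of all genes tested. In either direction that share was 15.6% of all genes. Groups did not overlap, with NEC higher, for 4 of the 7 (Hba-a1, Hbb-bs, Hbb-bt and Alas2), and for 10.8% of all genes tested. The 7 genes had a median log2 fold change of 2.44, against 0.026 over all genes tested. Since the globin copies may share reads and all 4 mark the same cell lineage, these are not 4 independent observations.

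The tool mattered for the call. DESeq2 called 5 of the 7 genes higher in NEC, against 3.65% of all genes tested, with adjusted p of 0.000545 for Hbb-bs, 0.000918 for Hba-a1, 0.00217 for Hbb-bt, 0.00397 for Alas2 and 0.00702 for Hba-a2, while limma-voom called 0, against 0.250% of all genes. Without NEC replicate 1, edgeR called 1 of the 7, Hbb-bs (log2 fold change 2.88, adjusted p = 0.0482), against 0.0501% of all genes. Without NEC replicate 2 the log2 fold changes were 1.74 for Hba-a1, 1.59 for Hba-a2, 1.74 for Hbb-bs, 1.55 for Hbb-bt and 2.37 for Alas2, so the fold of each gene was more than 1.5 times smaller without it. Without control replicate 3, the control with the most alpha globin, they were 3.08 for Hba-a1, 3.16 for Hba-a2 and 4.65 for Alas2, while Hbb-bs was at 2.42. For Slc4a1 the values ran from -1.44 without NEC replicate 2 to 0.84 without control replicate 1.

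**Figure D2:**
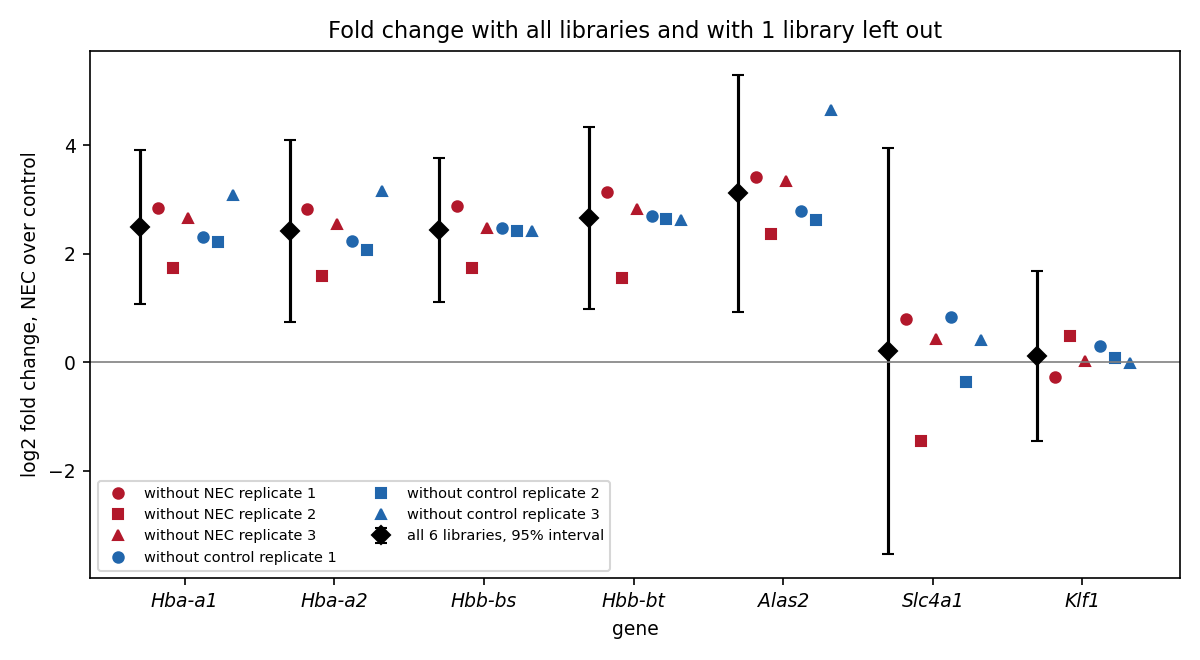
Log2 fold change of NEC over control for each gene, with all 6 libraries (black diamonds, 95% intervals) and with 1 library left out (red for an NEC library, blue for a control library). The globin genes stay between 1.55 and 3.16 in these fits, lowest without NEC replicate 2, and Slc4a1 and Klf1 fall on both sides of 0.

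The sample code divided the globin values. Within the AG181017 samples, 2 NEC libraries against 2 controls, the 4 globins summed to 1989 CPM in NEC and 228 CPM in control on average, an 8.71-fold ratio. Within the AG181028 pair, 1 library against 1 and so without a test, the sums were 469 CPM in NEC replicate 1 and 334 CPM in control replicate 3, a ratio of 1.40. For single genes the ratios in that pair were 1.63 for Hbb-bs, 1.51 for Hba-a1, 1.31 for Hbb-bt, 0.979 for Hba-a2 and 2.0 for Alas2. In the AG181017 samples they were 7.30 for Hbb-bs, 10.9 for Hba-a1, 8.66 for Hbb-bt, 12.0 for Hba-a2 and 31.4 for Alas2. None of the 7 genes was called by edgeR in the AG181017 samples alone or with the code as a term in the model. Whether the NEC effect differs between the codes was not tested. Sex-linked RNA was divided in the same way. Both AG181017 controls held Xist (179 and 344 CPM), while NEC replicates 2 and 3 had 0.429 and 0.546 CPM. In the AG181028 pair Xist was at 0.524 CPM in NEC and 1.17 CPM in control. Code and Xist level therefore cannot be told apart in these ratios.

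Globin took a small part of each library. The 4 adult genes made up 0.0459%, 0.320% and 0.116% of all counts in NEC replicates 1 to 3, against 0.0230%, 0.0213% and 0.0331% in control replicates 1 to 3. In every NEC library the share exceeded that of every control library. The sums after scaling were 1482 ± 1148 CPM in NEC and 264 ± 63.0 CPM in control (SD, n = 3 each), a ratio of means of 5.62.

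The balance of alpha and beta counts separated the libraries by sample code, while the groups overlapped. The code AG181028 has only 1 library per group. The ratio of summed alpha to summed beta counts was 0.896, 0.575 and 0.511 in NEC replicates 1 to 3, against 0.422, 0.330 and 1.08 in control replicates 1 to 3. The 2 AG181028 libraries thus had 0.896 and 1.08, and the 4 AG181017 libraries had 0.330 to 0.575. These are the same 2 libraries in which Alb was above 20 CPM, though Fga and Fgb were not highest there. The part of liver RNA or of any other property of these samples in the ratio was not tested. Within the AG181017 samples both NEC libraries were above both controls.

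The division within each pair varied less. Hba-a1 had 1.99, 1.41 and 1.34 times the counts of Hba-a2 in NEC replicates 1 to 3, and 1.39, 1.77 and 1.29 times in control replicates 1 to 3. Hbb-bs had 2.85, 1.65 and 2.50 times the counts of Hbb-bt in NEC and 2.20, 2.25 and 2.29 times in control. The 3 controls were close together in the beta ratio, and the NEC libraries lay on both sides of them, with the most globin-rich library, NEC replicate 2, having the lowest value. Since reads of each pair can be ambiguous, these ratios carry the authors' unknown treatment of such reads.

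**Figure D3:**
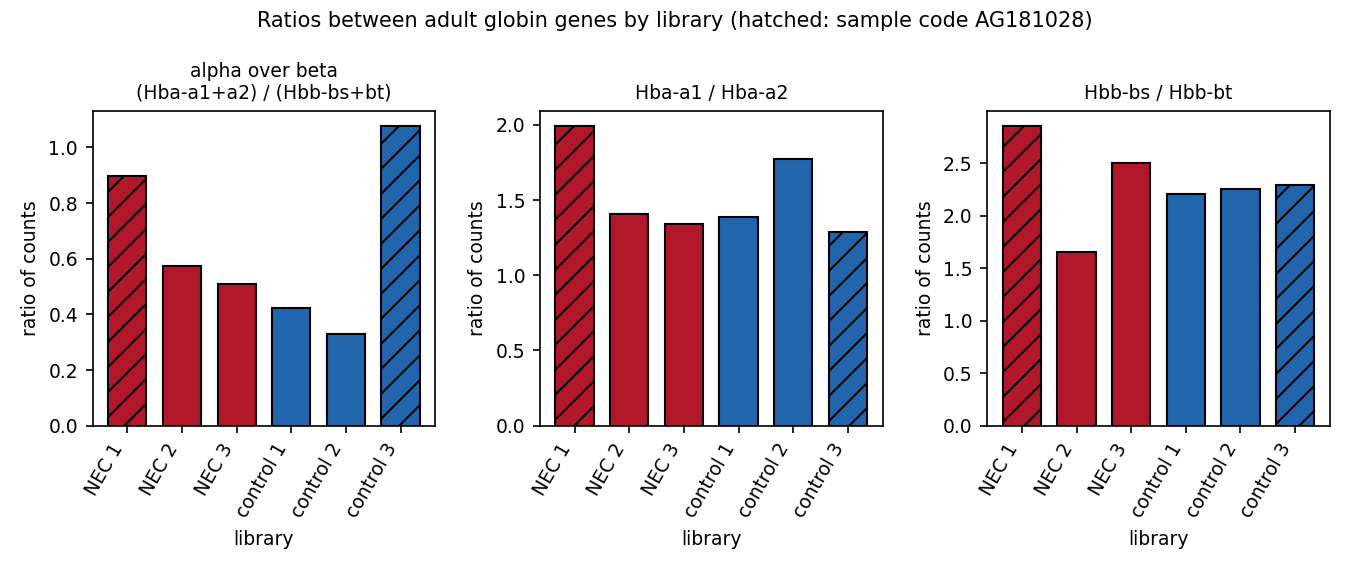
Ratios of counts between adult globin genes in each library, with NEC bars (red) left of control bars (blue) and hatching for the sample code AG181028. The alpha over beta ratio is 0.896 and 1.08 in the hatched libraries and 0.330 to 0.575 in the others, while the ratios within pairs do not follow the code.

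Levels can be compared between genes only per length of transcript. On the scale of CPM per kilobase of annotated exon, Hbb-bs averaged 804 in NEC and 148 in control, Hbb-bt 452 in NEC and 71.9 in control, Hba-a1 399 in NEC and 71.1 in control, and Hba-a2 334 in NEC and 62.5 in control. In control libraries Hbb-bs (144 to 154) did not overlap Hbb-bt (69.5 to 76.2), whereas Hbb-bt, Hba-a1 (41.5 to 120) and Hba-a2 (28.5 to 113) overlapped one another. In NEC libraries the ranges of all 4 overlapped, as the libraries differed in globin level. Within each NEC library Hbb-bs was the highest of the 4, at 238, 1405 and 769 in replicates 1 to 3. On the same scale Alas2 averaged 4.97 in NEC and 0.571 in control, below every globin gene in every library. Klf1 averaged 0.216 in NEC and 0.200 in control, and Slc4a1 averaged 0.0710 in NEC and 0.0612 in control. The ranges of these 2 genes overlapped in NEC libraries but not in control libraries, where every Klf1 value was above every Slc4a1 value.

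The other globin genes were absent or nearly so. The embryonic genes Hba-x, Hbb-y and Hbb-bh1, the beta-like gene Hbb-bh2 and the pseudogenes Hbb-bh0 and Hbb-bh3 were listed at 0 counts in all 6 libraries. The theta globin genes Hbq1a and Hbq1b had counts in NEC libraries alone, with 12 and 8 counts of Hbq1a in NEC replicates 2 and 3 and 8 counts of Hbq1b in NEC replicate 2. All 8 of these genes failed the low-count filter and were not tested.

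Other genes of red cell formation were read from 5 lists. Of the 8 other heme synthesis genes 0 were called and the median log2 fold change was 0.052. Alas1, the form of the first enzyme made in all tissues, had 25.3 ± 10.8 CPM in NEC and 12.5 ± 7.50 CPM in control (log2 fold change 1.01, SE 0.49). Uros, the uroporphyrinogen III synthase gene, had 3.16 ± 1.34 CPM in NEC and 9.91 ± 3.43 CPM in control (log2 fold change -1.65, SE 0.45, edgeR adjusted p = 0.140), lower in every NEC library. These enzymes serve heme synthesis in every cell, so their counts are not specific to red cells. Uros overlaps Bccip and Alas1 overlaps 4930500F10Rik on the opposite strand.

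Of 16 red cell membrane genes 12 could be tested, 0 were called and the median was -0.028. Dmtn, which makes the actin-bundling protein dematin, was higher in every NEC library, at 4.30 ± 2.05 CPM against 1.90 ± 0.0341 CPM in control (log2 fold change 1.18, SE 0.41, edgeR adjusted p = 0.235). Rhag and Rhd, named after their values were seen, had at most 18 counts in any library.

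Of 10 erythroid transcription genes 7 could be tested, 0 were called and the median was -0.36. Gata1, the master regulator of the erythroid lineage, named after its value was seen, was at 0 counts in all 3 NEC libraries and at 5, 0 and 8 counts in control replicates 1 to 3. Sox6 had 28.1 ± 5.10 CPM in NEC and 39.0 ± 5.27 CPM in control (log2 fold change -0.47, SE 0.24, edgeR adjusted p = 0.393). It overlaps Sox6os and Gm45025 on the opposite strand. Klf1 and Gata1 were at or near 0 in the same libraries that held 14796 to 241800 counts of the 4 globin genes. The rest of the list was mixed. Lmo2 had 3.58, 11.1 and 6.05 CPM in NEC replicates 1 to 3 and 9.20, 2.86 and 3.43 CPM in control replicates 1 to 3. Ldb1 averaged 57.2 CPM in NEC and 50.4 CPM in control. Gfi1b and Hemgn, named after their values were seen, had at most 4 and 50 counts. Lmo2 overlaps 4931422A03Rik and Ldb1 overlaps Pprc1 on the opposite strand.

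Of the 9 genes of erythropoietin signalling and iron uptake 0 were called, with a median of -0.32. Slc11a2, the iron transporter DMT1, which enterocytes also use to absorb iron, had 90.9, 210 and 152 CPM in NEC replicates 1 to 3 and 504, 690 and 664 CPM in control replicates 1 to 3. Its log2 fold change was -2.03 (SE 0.35, edgeR adjusted p = 0.0533). It passed with DESeq2, limma-voom, the sample code as a term, and both other low-count filters. Slc11a2 overlaps Gm5475 on the opposite strand. Epor, the erythropoietin receptor gene, was at 0.414 ± 0.197 CPM in NEC and 0.888 ± 0.968 CPM in control. Among 14 genes of late red cell enzymes and maturation, 11 could be tested, 0 were called and the median was -0.35. Fbxo7, a ubiquitin ligase adaptor gene, had 32.2 ± 3.18 CPM in NEC and 53.2 ± 7.80 CPM in control (log2 fold change -0.72, SE 0.22, edgeR adjusted p = 0.182). It overlaps A230060F14Rik and Gm24430 on the opposite strand.

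Haemoglobin that leaves red cells is bound by haptoglobin and taken up by macrophages through CD163, and its heme is broken down by heme oxygenase. Of 14 genes of this clearance route 1 was called, higher in NEC, against 0.261% of all genes tested. Cd163, the haemoglobin scavenger receptor gene, rose in NEC, with 2.02, 4.54 and 5.33 CPM in NEC replicates 1 to 3 and 0.382, 0.330 and 0.200 CPM in control replicates 1 to 3. The log2 fold change was 3.71 (SE 0.54, 95% interval 2.45 to 4.96, edgeR adjusted p = 0.0396). Its order over the NEC libraries was not that of globin, since NEC replicate 3 was highest. Cd163 stayed called in 1 of the 6 fits with 1 library left out, without NEC replicate 1, and its adjusted p reached 0.222 in the others. It was also not called with limma-voom, with the replicate block or in the AG181017 samples alone.

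Slc48a1, which carries heme out of the lysosome, had 32.7 ± 3.43 CPM in NEC and 17.4 ± 1.39 CPM in control (log2 fold change 0.91, SE 0.22, edgeR adjusted p = 0.114). It overlaps Hdac7 on the opposite strand. Slc40a1, the iron exporter ferroportin, had 406, 635 and 411 CPM in NEC replicates 1 to 3 and 1249, 1170 and 1346 CPM in control replicates 1 to 3 (log2 fold change -1.37, SE 0.27, edgeR adjusted p = 0.0760). Lrp1, a receptor of the heme carrier hemopexin among many ligands, had a log2 fold change of -1.31 (SE 0.41, edgeR adjusted p = 0.191). It overlaps Gm16217 on the opposite strand. The following were named for their role after their values were seen. The heme oxygenase gene Hmox1 had 161, 46.0 and 48.7 CPM in NEC and 56.8, 40.9 and 53.2 CPM in control, with NEC replicate 1, the NEC library with the least globin, far above the rest. The haptoglobin gene Hp had 3.83, 1.26 and 27.5 CPM in NEC and 0, 0.115 and 2.55 CPM in control. Neither passed the test (edgeR adjusted p = 0.516 for Hmox1 and 0.379 for Hp). The clearance list had a median of 0.17.

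**Figure D4:**
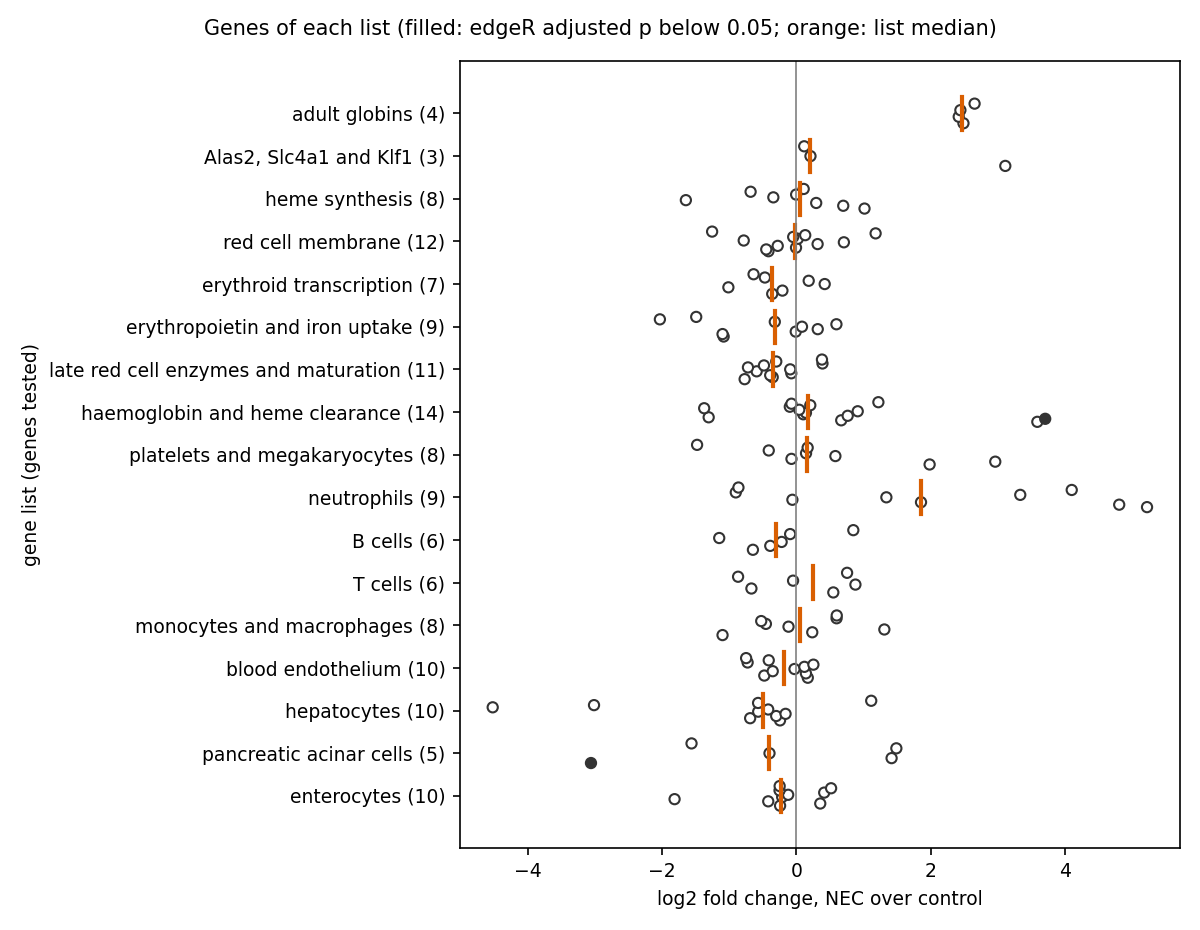
Log2 fold change of NEC over control (x axis) for each gene tested in each list (rows, with the number tested), filled where the edgeR adjusted p was below 0.05, with orange lines at list medians. The adult globins sit together between 2.42 and 2.65, the 5 lists from heme synthesis to late red cell enzymes have medians between -0.36 and 0.052, and Cd163 and Cela1 are the filled points.

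Other constituents of blood were read in the same libraries. Of 8 platelet and megakaryocyte genes tested 0 were called, with a median of 0.15. The platelet chemokine genes Pf4 and Ppbp had the smallest p of them. Pf4 had 2.77, 18.0 and 12.5 CPM in NEC replicates 1 to 3 and 3.23, 3.43 and 1.75 CPM in control replicates 1 to 3 (log2 fold change 1.98, SE 0.65, edgeR adjusted p = 0.213). As with the globins, NEC replicate 2 was highest, and NEC replicate 1 fell within the controls. Ppbp was below 1 CPM in all libraries (log2 fold change 2.96, SE 0.81). The whole platelet list summed to 8.61, 23.1 and 20.7 CPM in NEC and 8.87, 10.2 and 7.63 CPM in control, and Pf4 alone gave 18.0 of the 23.1 CPM in NEC replicate 2.

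Of 9 neutrophil genes tested 0 were called and the median was 1.86. At an unadjusted edgeR p below 0.05, 5 were higher in NEC, against 7.61% of all genes tested. Il1r2, a decoy receptor gene for interleukin 1, had the smallest p of the list, with 3.76, 3.04 and 16.6 CPM in NEC replicates 1 to 3 and 0.518, 0.345 and 0.494 CPM in control replicates 1 to 3 (log2 fold change 4.10, SE 0.75, edgeR adjusted p = 0.0613). It was highest in NEC replicate 3 and overlaps Gm16894 on the opposite strand. The log2 fold change was below 0 for 3 of the 9, Csf3r (-0.90), Mmp9 (-0.86) and Camp (-0.060), named after their values were seen. The calprotectin gene S100a8 had 1.42, 11.7 and 2.99 CPM in NEC replicates 1 to 3 and 0, 0.244 and 0.181 CPM in control replicates 1 to 3 (log2 fold change 5.22, SE 1.25, edgeR adjusted p = 0.110). S100a9, its partner, had 0.451, 12.1 and 3.25 CPM in NEC and 0.109, 0.345 and 0.114 CPM in control (log2 fold change 4.81, SE 1.19). Ltf, the lactoferrin gene of neutrophil granules and of some epithelia, had 21.3, 24.1 and 20.0 CPM in NEC and 5.49, 9.17 and 3.46 CPM in control (log2 fold change 1.86, SE 0.38, edgeR adjusted p = 0.0828). The list summed to 36.2, 65.8 and 51.9 CPM in NEC and 19.4, 21.4 and 28.5 CPM in control, with Elane at 0 counts in every library. Blood endothelium, which lines the vessels, summed to 186, 142 and 116 CPM in NEC and 146, 105 and 232 CPM in control, with 0 of 10 genes called and a median of -0.19. The part of these cells, or of blood vessel content, in the globin values was not tested.

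The genes whose profile over the 6 libraries was most like that of Hbb-bs were sought among genes with a mean of at least 1 CPM. Likeness was the root mean square distance between log2(CPM + 0.5) values centred on each gene's own mean, a description with no test. Hbb-bt was at 0.24, Hba-a1 at 0.57, Hba-a2 at 0.60 and Alas2 at 0.88. The 8 nearest other genes were Stfa1 (0.29), Spink4 (0.29), Gm5483 (0.30), Mmrn1 (0.30), BC100530 (0.34), Krt14 (0.37), Tmem119 (0.39) and Pf4 (0.40). On this measure all 8 were closer to Hbb-bs than the alpha globin genes were. For low values the added 0.5 CPM narrows the differences between libraries. Stfa1, Gm5483 and BC100530 had at most 0.115 CPM in any control and log2 fold changes of 5.82, 5.81 and 5.12. Hbb-bs had 2.44, so nearness on this measure does not mean that the folds were alike. Stfa1 and BC100530 are stefin A genes, a cluster of close copies whose counts may be shared. Mmrn1, which makes multimerin 1 of platelets and endothelium, had 17.0, 56.5 and 32.8 CPM in NEC replicates 1 to 3 and 6.75, 6.77 and 8.79 CPM in control replicates 1 to 3. Spink4, a goblet cell peptide gene, had 18.3, 122 and 111 CPM in NEC and 17.5, 14.4 and 16.7 CPM in control. None of the 8 was called by edgeR.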

How the data were processed

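Counts per gene were deposited by the authors for 3 NEC and 3 control intestines, as whole numbers under Ensembl identifiers. Reads were paired-end, per the labels' protocols, and the build was mm10, per the submitters' processing notes. The aligner, counter, strand setting and handling of reads that fit several genes are not given in sources used here. Symbols were joined by identifier for 54409 of 54446 rows.

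All genes were fitted together with edgeR 4.0.16 (R 4.3.3): filterByExpr with a minimum count of 10, TMM scaling, the robust quasi-likelihood F test on group alone, and Benjamini-Hochberg adjustment over 19176 genes, called below 0.05. Positive log2 fold changes are higher in NEC. DESeq2 1.42.0, limma-voom (limma 3.58.1), other scalings and filters, a replicate block, the sample code and fits without each library were alternatives. Exon lengths, coding sequences and overlaps came from GENCODE M21, promoters from RefSeq (6 of the 7 measured genes had one).

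The genes and the lists were chosen with earlier results of these data known. Text names all members, every minor globin with a count, up to 4 genes with the smallest p and the most abundant gene of each list, and the 8 profiles nearest to Hbb-bs. Others are said to be chosen after their values were seen. Results for some genes are not reported here.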

Additional observations from a re-analysis of the deposited data

How the results depend on the processing

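The number of genes called over the whole table was 135 (50 higher and 85 lower in NEC). It was 247 with no low-count filter, 1452 with DESeq2, 243 with the sample code as a term, 25 in the AG181017 samples alone, and 0 to 106 with 1 library left out. Scaling by library size only gave 52 higher and 59 lower calls and moved the median log2 fold change of all genes to 0.098. Of the 7 measured members, DESeq2 called 5 and fits with 1 library left out called 0 to 1. DESeq2 also called the alpha sum (log2 fold change 2.47) and the beta sum (2.51), which edgeR did not. The 4 globins and Alas2 had a positive log2 fold change in all 18 alternatives that gave them one. Slc4a1 turned to -0.49 with limma-voom and -0.40 with the sample code as a term, and ran from -1.44 to 0.84 with 1 library left out. Klf1 turned to -0.027 with limma-voom and -0.43 in the AG181017 samples, and ran from -0.27 to 0.49 with 1 library left out. The causes of these changes were not tested.

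With a replicate block 54 genes and 0 members were called, Slc4a1 stood at -0.53 and Klf1 at -0.023. Deviations from group means of same-numbered samples correlated at -0.16, 0.37 and -0.013 for numbers 1, 2 and 3. Deviations from a mean of 3 samples are not independent, so these values cannot show whether same-numbered samples were paired. Not every sample correlated best with its own number. NEC replicate 1 did so with control replicate 3 (0.45), which has the same sample code.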

Other observations

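Of 6 B cell genes tested 0 were called, with a median log2 fold change of -0.31, and the list summed to 2.34, 3.02 and 1.84 CPM in NEC replicates 1 to 3 and 7.29, 1.34 and 1.10 CPM in control replicates 1 to 3. Of 6 T cell genes tested 0 were called, with a median of 0.25 and sums of 6.39, 4.55 and 3.43 CPM in NEC and 4.58, 3.36 and 5.01 CPM in control. Of 8 monocyte and macrophage genes 0 were called and the median was 0.059. Within that list Cd68, a lysosomal membrane gene of macrophages, averaged 26.5 CPM in NEC and 10.7 CPM in control (log2 fold change 1.31, SE 0.26, edgeR adjusted p = 0.0773). Csf1r, the receptor gene for macrophage growth factor, averaged 130 CPM in NEC and 278 CPM in control (log2 fold change -1.10, SE 0.24, edgeR adjusted p = 0.0919). Cd68 and Csf1r thus lay on opposite sides of 0 in libraries where Cd163 rose. Csf1r overlaps Hmgxb3 on the opposite strand.

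Of 5 pancreatic acinar genes tested 1 was called, lower in NEC, against 0.704% of all genes called in either direction. Cela1, an elastase gene, averaged 3.83 CPM in NEC and 31.9 CPM in control (log2 fold change -3.06, SE 0.37, edgeR adjusted p = 0.0297). The hepatocyte list had a median of -0.50 and the enterocyte list a median of -0.23, with 0 called in each. Alas2 had 13.5, 7.85 and 6.46 counts per 1000 counts of the 4 adult globins in NEC replicates 1 to 3, against 2.85, 1.15 and 9.50 in control replicates 1 to 3, so the samples coded AG181028 had the highest value of each group here too.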
